A study of Homo sapiens with 3 samples.

Results

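The genes described here are 8 that encode chaperones of the secretory pathway or regulators of the unfolded protein response: HSPA5, HSP90B1, CALR, PDIA4, ERN1, ATF6, XBP1 and CREB3L4. They were chosen by name, and each was taken as its gene body on hg19 with its ends given in whole kilobases. The 8 windows add up to 359 kb, and the comparison rests on the peaks of histone H3 trimethylated at lysine 36 (H3K36me3) inside them. They held 62 of 131798 nuclear peaks after dihydrotestosterone (DHT) and 51 of 117564 in untreated cells, and no peak crossed a window end.

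The mark was mapped by chromatin immunoprecipitation sequencing in LNCaP, an androgen-responsive line established from human prostate cancer. One group was given 100 nM DHT, the active androgen formed from testosterone, for 4 h in RPMI labelled red-free, and the other had no treatment. Each has 1 library, made with the same antibody, and an untreated input library without antibody was not analysed here. Cells were maintained in RPMI with 10% serum, and the labels do not say whether the untreated ones were moved to the red-free medium, so the hormone and a change of medium cannot be told apart. With 1 library per condition there is no replicate spread and no test, and every difference below compares those 2 libraries.

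H3K36me3 is set on nucleosomes behind elongating RNA polymerase II, so it lies over the bodies of transcribed genes and is usually sparse at their starts. The unfolded protein response adjusts the folding capacity of the endoplasmic reticulum. Its membrane sensors, among them IRE1 (gene ERN1) and ATF6, detect misfolded protein, and the transcription factors they release or produce, including XBP1, raise the genes of chaperones such as BiP (gene HSPA5). Prostate luminal epithelium, whose cells LNCaP resembles, is a secretory tissue with a constant load of folding in this compartment.

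Peaks covered 66.0 Mb of the nuclear chromosomes after DHT and 64.3 Mb in untreated cells, 1.03 times as much, with median widths of 354 and 374 bp. Each peak carries the authors' score, which spans 50 to 3100 on a scale that no file states, so scores are used only to rank peaks within their own list, where the median was 85.7 after DHT and 81.2 untreated. A peak list shows where a threshold was passed and not how high the mark was, and read numbers are unknown. The line was not checked against marker genes, whose hg19 positions were not used here.

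All 8 genes carried peaks in both libraries, and 7 of 8 were covered over at least 10% of the window after DHT and likewise in untreated cells. When the chromosomes were divided end to end into tiles of the 6 different window lengths, 7.25% of tiles reached 10% after DHT and 7.23% in untreated cells. Those tiles are not placed on genes, so a window that frames a gene has an advantage over them. CALR was the most covered gene and ATF6 the least, in both libraries. Over all 8 windows 12.5% of the sequence was covered after DHT and 9.26% in untreated cells.

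**Figure D1:**
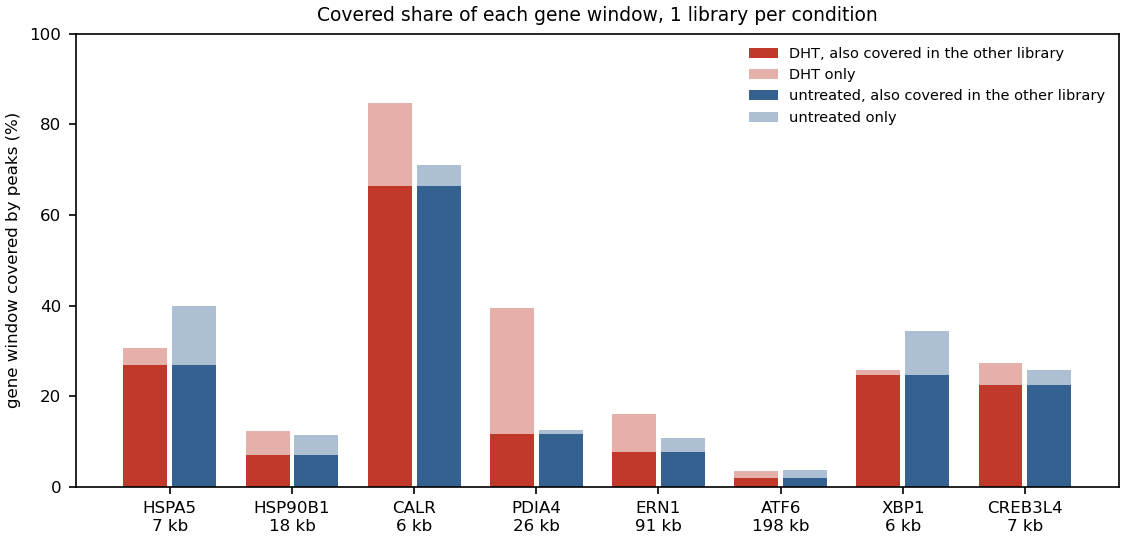
Bars give the percentage of each gene window covered by H3K36me3 peaks, DHT left and untreated right, with the part covered in both libraries in full colour and the part covered in only that library pale; there is 1 library per condition and no error bar. CALR stands highest at 84.6% after DHT and 71.0% untreated, ATF6 lowest at 3.57% and 3.66%, and PDIA4 shows the largest pale part after DHT.

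Covered length was higher after DHT in 5 genes and lower in 3. Only PDIA4 and ERN1 reached 1.5-fold, both higher after DHT, with ERN1 just past that line at 1.503. No gene was 1.5-fold lower. Both counts were taken among the 7 genes covered over at least 5% in either library. Among tiles of the same lengths that met this minimum, 29.7% were at least 1.5-fold higher after DHT and 28.6% at least 1.5-fold lower. The share of higher tiles depended on length, from 8.38% at 198 kb to 34.3% at 6 kb. It averaged 26.7% over the lengths of the 7 genes, so 2 of 7 is near this background. The background includes tiles with no untreated peak, 20.2% of those tested at 6 kb and 0.017% at 91 kb. All 7 genes had peaks in both libraries, so it is not fully matched to them. The median ratio over the 8 genes was 1.08. It was 0.936 to 1.01 for tiles of each length that met the 5% minimum and had peaks in both libraries. The sets differ, since the gene median includes ATF6, which was below that minimum. With windows widened or narrowed by 1 kb, 3 genes were higher and 5 lower, so the direction of the small differences is not stable. A counting interval that treats each peak as an independent event included 1 for all 8 genes. Where a window holds few peaks this interval is wide at almost any ratio, so it cannot show that coverage was equal.

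HSPA5 encodes BiP, the Hsp70 chaperone of the endoplasmic reticulum lumen, which binds unfolded chains and holds the sensors inactive. Its window lies on chromosome 9 from 127997001 to 128004000, on the minus strand. Peaks covered 2141 bp, or 30.6%, after DHT and 2792 bp, or 39.9%, in untreated cells. The DHT to untreated ratio was 0.767, with a 95% counting interval of 0.163 to 3.6. It was 0.443 without the widest DHT peak and turned to 1.16 without the widest untreated one. Tiles of 7 kb were at least 1.5-fold lower after DHT in 31.1% of cases, so larger differences than this are common at this length.

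In both libraries the mark over HSPA5 began near the start and stopped well before the end. Between those points the libraries differed most in segment 2 of 4 equal segments from the 5′ end. It was covered over 28.7% after DHT and 78.6% in untreated cells. After DHT the mark formed 3 peaks, at 0.42 to 1.16, 1.77 to 2.27 and 3.54 to 4.44 kb from the 5′ end of the window. In untreated cells there were 4, of which 3 overlapped those after DHT. The untreated peak without a counterpart was 430 bp wide, at 2.83 to 3.26 kb, with a score of 123. The last 2.56 kb of the window after DHT and the last 2.57 kb in untreated cells held no peak, which left most of the 3′ end bare in both. The nearest upstream peaks lay 21.8 kb away in both libraries.

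HSP90B1 encodes GRP94, the Hsp90 chaperone of the same compartment, with a narrower set of client proteins. Its window on chromosome 12, from 104324001 to 104342000 on the plus strand, held short peaks with wide gaps between them. After DHT no peak lay between 8.04 and 13.49 kb from the 5′ end, and segment 3 of 4 equal segments was covered over 0.178%, against 6.6% in untreated cells. Coverage was 12.4% after DHT and 11.4% in untreated cells, 2231 and 2056 bp, a ratio of 1.09 (counting interval 0.315 to 3.73). The ratio was 1.8 in the higher-scoring 50% of each list and 0.572 with peaks up to 5 kb apart joined. The library after DHT had 6 peaks and the untreated library 5, and 4 of each overlapped. None was wider than 469 bp after DHT or 640 bp untreated.

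Several HSP90B1 peaks ranked high in their lists although they were short. After DHT the peak at 14.3 to 14.7 kb scored 278, at the 95.4th percentile of that list, and the 202 bp peak at 13.5 to 13.7 kb scored 228. In untreated cells the peak at the second of these places, 270 bp wide, scored 357, at the 98.5th percentile of the untreated list. The untreated peak at the first place scored 76.2, at the 45.1st percentile. The first peak after DHT lay 0.63 kb into the window and had no untreated counterpart, while the first untreated peak lay 2.96 kb in.

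CALR encodes calreticulin, a calcium-binding lectin chaperone that retains glycoproteins until they are folded. On chromosome 19, from 13049001 to 13055000 on the plus strand, peaks covered 5077 bp, or 84.6%, after DHT and 4258 bp, or 71.0%, in untreated cells. Of all 6 kb tiles, 0.0163% were covered as much after DHT and 0.0557% in untreated cells. The ratio was 1.19, with a counting interval of 0.157 to 9.04 that reflects how few peaks carry the value. It was 0.598 without the widest DHT peak and 6.21 without the widest untreated one.

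Over CALR the mark was cut into 3 peaks after DHT and 2 in untreated cells, and 93.7% of the untreated length was also covered after DHT. The widest peak was 2531 bp after DHT, with a score of 238, and 3441 bp in untreated cells, with a score of 275. The libraries differed mainly at the 3′ end. With the window divided into 4 equal segments from the 5′ end, 90.6% of segment 4 was covered after DHT and 38.2% in untreated cells, because the last DHT peak ran to 5.86 kb and the last untreated peak stopped at 5.07 kb.

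PDIA4 encodes ERp72, a protein disulfide isomerase with several thioredoxin-like domains, and its 3′ part showed the largest difference of the 8 genes. Its window lies on chromosome 7 from 148700001 to 148726000, on the minus strand. Peaks covered 10267 bp, or 39.5%, after DHT and 3256 bp, or 12.5%, in untreated cells, 3.15 times as much (counting interval 0.501 to 19.8). Tiles of 26 kb were at least 1.5-fold higher after DHT in 20.1% of cases. Coverage as high as that of PDIA4 was found in 0.0673% of those tiles after DHT and in 4.89% in untreated cells.

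The difference over PDIA4 lay in the 3′ part of the gene. Segment 4 was covered over 78.3% after DHT and held no peak in untreated cells, and segment 3 was covered over 63.5% and 35.4%. Towards the 5′ end the libraries were close, at 4.09% after DHT and 4.74% untreated in segment 1 and at 12.0% and 10.0% in segment 2. A single DHT peak of 5092 bp, from 148700741 to 148705832, filled most of segment 4. It was at the 99.9th percentile of the DHT list by width, while its score of 82.2 was below the list's median, at the 46.3rd percentile. It was the only peak of at least 1 kb among the 8 genes without a counterpart in the other library.

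Next to it in PDIA4, a DHT peak of 2249 bp with a score of 101 had only 10.4% of its width covered in untreated cells. Without the 5092 bp peak the ratio was 1.59, and without the widest untreated peak, of 2298 bp, it was 10.7. When peaks up to 5 kb apart were joined it was 1.36. The nearest DHT peaks outside the window were 41.4 kb upstream and 67.1 kb downstream, and the nearest untreated peaks 41.3 and 57.2 kb away.

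**Figure D2:**
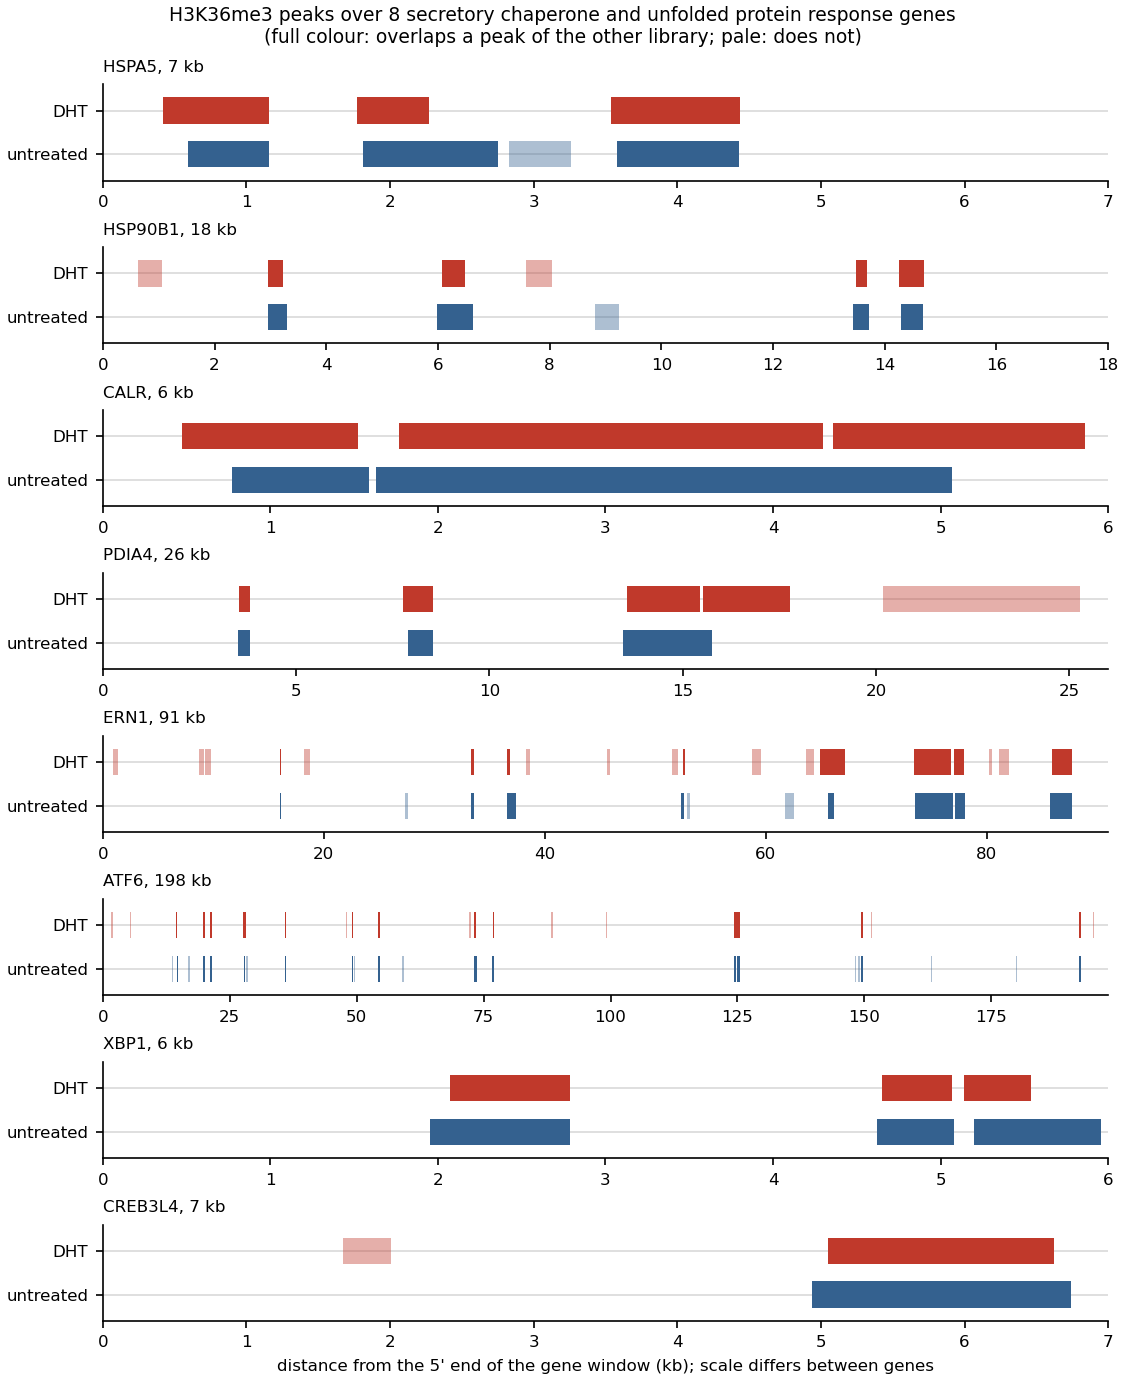
Each panel is 1 gene window drawn 5′ to 3′ in kb from its 5′ end, with DHT peaks in the upper row and untreated peaks in the lower row; full colour marks peaks that overlap a peak of the other library, and scales differ between genes. The 5092 bp DHT peak at the 3′ end of PDIA4 has nothing below it, whereas the peaks of XBP1 and CALR pair up between the rows.

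ERN1 encodes IRE1, the kinase and ribonuclease that splices XBP1 mRNA when the compartment is stressed. Its window, on chromosome 17 from 62117001 to 62208000 on the minus strand, held 19 peaks after DHT and 11 in untreated cells. They covered 14699 bp, or 16.2%, after DHT and 9783 bp, or 10.8%, in untreated cells. The ratio was 1.503 (counting interval 0.511 to 4.42), and tiles of 91 kb reached 1.5-fold higher in 12.1% of cases. The ratio fell under 1.5 when covered lengths were divided by the total of each list, to 1.47. It was 1.49 when the window was narrowed by 1 kb and when the lists were trimmed to the same covered length. Without the widest DHT peak the ratio was 1.17, and without the widest untreated one 2.31. It was 2.27 with peaks up to 5 kb apart joined and 6.02 in the higher-scoring 50% of each list, where the widest untreated ERN1 peaks drop out.

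In both libraries the mark of ERN1 gathered towards its 3′ end, where segments 3 and 4 held 80.4% of the covered length after DHT and 84.2% in untreated cells. The widest DHT peak, 3301 bp at 73.4 to 76.8 kb from the 5′ end, lay over the widest untreated one, 3433 bp. A peak of 1828 bp at 85.9 to 87.7 kb after DHT matched one of 2013 bp in untreated cells. Their ranks were far apart. The DHT peak scored 723, at the 99.8th percentile of its list, and the untreated one 63.9, at the 28.5th percentile. For the widest pair the scores were 212, at the 91.0th percentile of the DHT list, and 50.03, near the bottom of the untreated list at the 0.0612th percentile. Ranks in lists of different lengths do not measure a change in the mark.

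In the whole nuclear lists, 48.5% of DHT peaks and 52.3% of untreated peaks had a counterpart. ERN1 peaks with one numbered 8 of 19 after DHT and 8 of 11 in untreated cells. Those without one numbered 11 of 19 and 3 of 11, and the widest measured 829 bp after DHT and 767 bp untreated. After DHT they included 1 that began 0.92 kb into the window, while the first untreated peak lay 16.0 kb in. Segment 1 was covered over 8.66% after DHT and 0.716% in untreated cells. The nearest peaks upstream of ERN1 were 15.3 kb away after DHT and 15.4 kb away in untreated cells.

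ATF6 encodes the membrane-bound transcription factor that is cut in the Golgi to free its active part. It is the longest of the genes, on chromosome 1 from 161736001 to 161934000 on the plus strand, and the most sparsely marked. Its 198 kb held 21 peaks after DHT and 22 in untreated cells, covering 7077 bp, or 3.57%, and 7241 bp, or 3.66%. The ratio was 0.977 (counting interval 0.496 to 1.93). Of all 198 kb tiles, 21.4% were covered as much after DHT and 21.1% in untreated cells, and ATF6 fell below the 5% minimum for a call.

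The ATF6 peaks were short, with a median width of 310 bp after DHT and 312.5 bp untreated. They lay in all 4 segments but left long gaps. No DHT peak lay between 151.54 and 192.32 kb from the 5′ end, and no untreated peak between 77.06 and 124.27 kb. Along the gene, coverage was 5.57% in segment 1 and 2.19% in segment 4 after DHT, and 4.93% and 3.0% in untreated cells. Of the peaks, 12 of 21 after DHT and 13 of 22 in untreated cells had a counterpart. The shares over the nuclear lists were 48.5% after DHT and 52.3% untreated. The exception in width was a DHT peak of 1263 bp, from 161860252 to 161861514, with a score of 441. In untreated cells the same place was covered by a pair of peaks of 467 and 681 bp, the wider scoring 341. RefSeq lists a pseudogene, LOC100422526, inside ATF6. Its place on hg19 was not determined, and its part in these peaks was not tested.

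**Figure D3:**
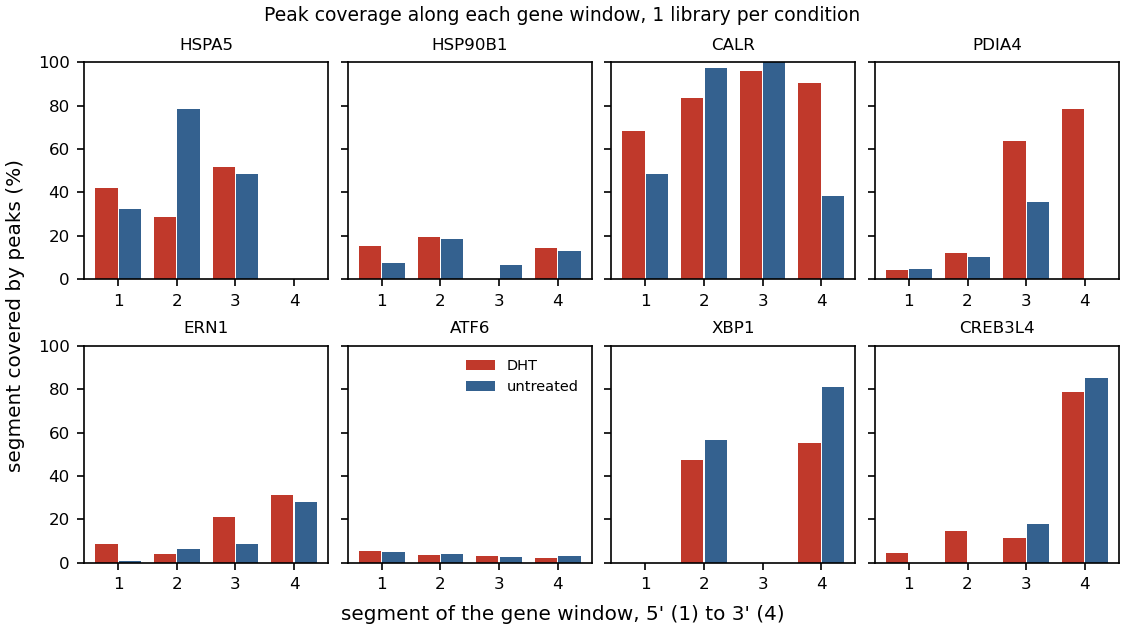
Bars show the percentage of each of 4 equal segments of the gene window covered by peaks, segment 1 at the 5′ end and segment 4 at the 3′ end, with DHT left and untreated right (1 library each). PDIA4 has 78.3% of segment 4 covered after DHT and none untreated, CREB3L4 and ERN1 are highest in segment 4 in both libraries, and HSPA5 has no coverage there.

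XBP1 encodes the bZIP transcription factor produced in active form after IRE1 splices its mRNA. On chromosome 22, from 29191001 to 29197000 on the minus strand, it had 3 peaks in each library at matching places, and all 6 overlapped. Coverage was 25.7% after DHT and 34.4% in untreated cells, 1540 and 2065 bp, a ratio of 0.746 (counting interval 0.143 to 3.89). It was 0.401 without the widest DHT peak and 1.27 without the widest untreated one. Of the length covered after DHT, 95.8% was also covered in untreated cells. The untreated peaks were wider at each place. The nearest pair to the 3′ end measured 405 bp after DHT, with a score of 66.0, and 758 bp untreated, with a score of 377. Within their own lists these scores were at the 27.9th percentile after DHT and the 98.8th untreated. The adjacent pair ranked the other way, at the 94.0th percentile after DHT and the 44.3rd untreated. The remaining pair was at the 43.2nd and 33.3rd. Tiles of 6 kb were at least 1.5-fold lower after DHT in 32.2% of cases.

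In XBP1 segments 1 and 3 were empty in both libraries. Segment 2 was covered over 47.5% after DHT and 56.5% untreated, and segment 4 over 55.2% and 81.1%. The first peak began 2.07 kb from the 5′ end after DHT and 1.95 kb in untreated cells. Beyond the 3′ end the next 10 kb, towards CCDC117, was covered over 23.1% after DHT and 22.9% in untreated cells.

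CREB3L4 encodes AIbZIP, a membrane-bound bZIP factor related to ATF6 that is abundant in prostate and known from earlier work as androgen-induced. Its window on chromosome 1, from 153940001 to 153947000 on the plus strand, had similar coverage in both libraries, 1912 bp or 27.3% after DHT and 1801 bp or 25.7% in untreated cells. The ratio was 1.06 (counting interval 0.0818 to 13.8), but it was 2.59 with peaks up to 5 kb apart joined and 0.186 without the widest DHT peak. One wide peak near the 3′ end carried most of the coverage after DHT and all of it in untreated cells, 1577 bp after DHT and 1801 bp in untreated cells, with scores of 325 and 373, at the 97.1st and 98.7th percentile of their lists. The DHT peak lay wholly within the untreated one.

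A second DHT peak in CREB3L4, 335 bp wide with a score of 56.8, lay 1.67 kb into the window and had no untreated counterpart. The neighbouring genes SLC39A1 and JTB overlap the ends of CREB3L4 in RefSeq, and the mark does not carry strand. The next peak past the 3′ end began 0.12 kb after it in the DHT library and 0.01 kb after it in the untreated library. Peaks near that end can therefore not be assigned to CREB3L4 rather than JTB.

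The 8 genes were also set side by side by role, as 4 chaperones and 4 regulators. The chaperone windows, 57 kb in all, were covered over 34.6% after DHT and 21.7% in untreated cells. PDIA4 carried nearly all of that gap, since the other 3 chaperones, 31 kb in all, were covered over 30.5% and 29.4%. The regulators' windows, 302 kb with the long genes ATF6 and ERN1, were covered over 8.35% and 6.92%. Median coverage per gene was 35.0% after DHT and 26.2% untreated among chaperones, and 20.9% and 18.2% among regulators. The median ratio of DHT to untreated was 1.14 for chaperones and 1.02 for regulators. The roles overlapped gene by gene. HSP90B1 was less covered than the short regulators XBP1 and CREB3L4 in both libraries, and PDIA4 was less covered than both in untreated cells. Length and role are mixed in this contrast, and 4 genes are not replicates of a role.

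Most peaks of these genes had a counterpart in the other library. After DHT, 38 of 62 peaks, or 61.3% (Wilson 95% interval 48.8% to 72.4%), were overlapped by an untreated peak, against 48.5% of the nuclear DHT list. In untreated cells 37 of 51, or 72.5% (59.1% to 82.9%), were overlapped by a DHT peak, against 52.3% of the nuclear untreated list. Shared sequence was 45.0% of all sequence covered in either library, compared with 32.5% over the nuclear chromosomes. By gene it ran from 28.9% in PDIA4 to 74.6% in CALR, with 73.8% in CREB3L4 and 69.2% in XBP1. The intervals cover counting error only, and neighbouring peaks of 1 gene are not independent. ATF6 and ERN1 together supplied most of the peaks, and after DHT 12 of 21 and 8 of 19 of theirs had a counterpart. The share was uneven by role. Among chaperones 82.4% of DHT peaks and 85.7% of untreated peaks had a counterpart, and among regulators 53.3% and 67.6%.

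Within these genes, peaks with a counterpart ranked higher in their lists than those without. Their median score was 149 after DHT, compared with 89.1 for the 24 DHT peaks without one. In untreated cells the median was 106 with a counterpart and 73.5 for the 14 peaks without one. The whole lists were not split in this way, so the difference cannot be called particular to these genes. Of the DHT peaks 43 of 62 scored above the median of the DHT list, and of the untreated peaks 29 of 51 above that of the untreated list. Peaks of at least 2 kb numbered 5 of 62 after DHT, in CALR, PDIA4 and ERN1, and 4 of 51 in untreated cells, in the same 3 genes. In the whole nuclear lists such peaks made up 2.05% after DHT and 2.58% in untreated cells.

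**Figure D4:**
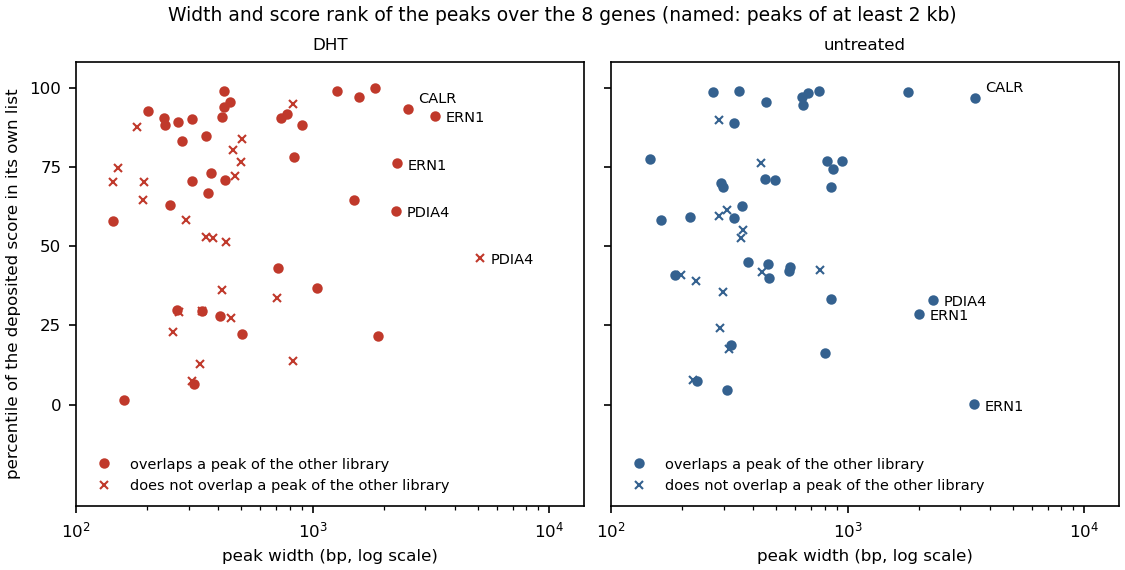
Every peak over the 8 genes is placed by its width (log axis, bp) and by the percentile of its deposited score within its own list, DHT left and untreated right; circles overlap a peak of the other library and crosses do not, and peaks of at least 2 kb are named. The 5092 bp PDIA4 peak is the one wide cross, at the 46.3rd percentile, and the 3433 bp untreated ERN1 peak lies at the bottom of its list.

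Of the 8 genes, 4 share a promoter element of this response. The ER stress element, CCAAT and CCACG separated by 9 bases, is the site through which ATF6 is known to act together with NF-Y, which binds the CCAAT part. The element was first defined in promoters of chaperone genes, HSPA5 among them, so its presence there is background and not a result of these data. It was searched on both strands from 250 bases before to 50 bases after the start in the RefSeq promoters of GRCh38.p14, where all 8 genes were matched with 10 promoters. It was found in HSPA5, HSP90B1, CALR and XBP1, and in 0.0769% of all promoters, 27 of 35116. The matches are printed 5′ to 3′ on the gene's strand with the element in capitals and 20 bases on each side, to show which genes carry it and how the spacer differs. In CALR and in the second match of HSP90B1 it reads on the opposite strand, as CGTGG and ATTGG.
HSPA5, GRCh38.p14 chr9:125241371-125241429, minus strand: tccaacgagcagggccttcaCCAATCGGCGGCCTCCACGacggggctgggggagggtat
HSP90B1, chr12:103930196-103930254, plus strand: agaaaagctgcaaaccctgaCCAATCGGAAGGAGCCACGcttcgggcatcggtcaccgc
HSP90B1, chr12:103930301-103930359, plus strand: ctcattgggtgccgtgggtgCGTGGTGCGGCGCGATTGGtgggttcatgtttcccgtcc
CALR, chr19:12938364-12938422, plus strand: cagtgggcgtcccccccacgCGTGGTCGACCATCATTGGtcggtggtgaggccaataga
XBP1, chr22:28800583-28800641, minus strand: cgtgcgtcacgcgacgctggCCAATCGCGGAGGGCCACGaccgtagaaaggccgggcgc

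The element began 66 bases before the start in HSPA5, 52 in XBP1, 194 and 89 in HSP90B1 and 225 in CALR. These are matches of letters and say nothing of binding in LNCaP. The H3K36me3 peaks of these genes began 0.42 to 2.07 kb into their windows after DHT and 0.59 to 2.96 kb in untreated cells. Carriers of the element were on both sides in the comparison, with ratios of 0.767 in HSPA5, 0.746 in XBP1, 1.09 in HSP90B1 and 1.19 in CALR. The searched promoters of PDIA4 and ERN1, the genes with the largest ratios, held no match to the element. ER stress element II, ATTGG and CCACG separated by 1 base, the UPR element TGACGTGG and the palindromic androgen response element, AGAACA and TGTTCT separated by 3 bases, were in no member promoter. They were in 0.0541%, 0.729% and 0.00285% of all promoters. Sequences this rare would be missing from most sets of 10 promoters, so their absence says little about these genes.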

How the data were processed

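The deposited files are peak lists, 1 per ChIP library, that give each peak's position and the authors' score. MACS made the calls, per the file contents, on hg19, per the files' own names. No source used here states its settings, its control, the aligner or the depth.

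Nuclear chromosomes were used. Covered bases were counted with NumPy 2.4.6 under Python 3.11.15 and checked against bedtools 2.31.1, and 10 of 10 checks on simulated and real peaks were passed. Strand and neighbours came from RefSeq (GRCh38.p14), with no coordinates carried over to hg19, and exons and introns were not placed. Positions along a gene are counted from the window's end, which lies within about 1 kb of the gene's. Other genes of the pathway were listed but not analysed here, for lack of hg19 coordinates. A tile or gene was called at 1.5-fold with at least 5% covered in either library, and tiles with no peak in 1 library count as called. Ratio intervals treat covered length as a sum of independent peaks. The text may name all 8 members, their widest and highest-scoring peaks, and peaks of at least 1 kb without counterpart; other peaks named were chosen after their values were seen. Sequences were credited to RefSeq. The members and lists were chosen with earlier results of these data known.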

Additional observations from a re-analysis of the deposited data

How the results depend on the processing

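Alternatives that leave out the widest peak of each gene were chosen after seeing the data and lower 1 library by construction. Genes with higher and lower coverage after DHT, 5 and 3, became 3 and 5 with windows widened or narrowed by 1 kb, 2 and 6 without the widest DHT peaks, and 8 and 0 without the widest untreated peaks. The 2 genes at least 1.5-fold higher became 1 with lists trimmed to the same covered length, with windows narrowed by 1 kb, at 2-fold, with covered length divided by the total of its list and without the widest DHT peaks, and 5 without the widest untreated peaks. The 0 genes 1.5-fold lower became 1 in the higher-scoring 50% of each list, with peaks joined at 5 kb and with narrowed windows, and 4 without the widest DHT peaks. Untreated genes at 10% covered, 7, became 4 in the higher-scoring 50%, 4 when 25% was required and 3 without the widest untreated peaks. DHT peaks overlapped, 61.3%, became 46.5% among higher-scoring peaks, 75.9% with 5 kb joining and 46.8% without the widest untreated peaks, and untreated peaks overlapped, 72.5%, became 87.0% with 5 kb joining. The other 57 of these values were counts within 1.5 times the main count or shares within its 95% counting interval. Among them were 3 genes 1.5-fold higher in the higher-scoring 50%, and 5 DHT genes marked, in place of 7, when 25% was required and without the widest DHT peaks. The share of all nuclear peaks overlapped was not recalculated under these alternatives. The changed overlap shares therefore have no matching background. The cause of the changes was not tested.

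PDIA4 stayed above 1 in all 9 alternatives, from 1.36 to 10.7, but not all of them could change it. Trimming the lists or widening the windows left its ratio at 3.15, and leaving out the widest untreated peak could only raise it. ERN1 also stayed above 1, from 1.17 to 6.02. The highest was in the higher-scoring 50%, where the low-scoring untreated ERN1 peaks drop out. HSP90B1 went to both sides of 1, from 0.572 to 1.8, as did CALR, from 0.598 to 6.21, and ATF6, from 0.803 to 1.17. CREB3L4 did so in 8 alternatives, from 0.186 to 2.59. HSPA5 ran from 0.443 to 1.16. It was above 1 in 2 alternatives, without the widest untreated peaks and, at 1.03, with peaks joined at 5 kb. XBP1 ran from 0.401 to 1.27. It was above 1 only without the widest untreated peaks, which lowers the untreated library by construction. Its next highest value was 0.969, with peaks joined at 5 kb. No paired analysis was possible because each condition has 1 library. Depth is unknown, so missing peaks cannot be told from shallow sequencing.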
